A study of Mus musculus with 8 samples.

Results

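The 38 genes described here are a cell cycle and DNA replication set, chosen by symbol, out of 23171 genes in the deposited count table. All 38 were found, and all 38 were among the 14004 genes with enough counts to test, with 141 to 9997 counts per gene and library. They fall into 16 genes of S phase, whose transcripts rise as cells enter and pass through DNA replication, and 22 genes of G2 and mitosis (G2/M), by their textbook time of expression. The knockout mice carried an epidermis-specific knockout of Hnrnp-u (gene symbol Hnrnpu, called cKO here, 4 libraries), and the control mice were WT (4 libraries). Mice of both genotypes had received imiquimod, an agonist of Toll-like receptor 7 that brings on psoriasis-like inflammation with epidermal thickening when applied to mouse skin. RNA came from epidermis, with keratinocytes given as the cell type and all samples given as 1 batch. The Cre driver, the deleted exons, the age of the mice and the length of treatment are each not given in the sources used here. Untreated skin was not analysed here, so no value says how far imiquimod itself moved these genes.

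Cells of the epidermis divide mainly in the basal layer, and psoriasis-like skin is known for many more dividing keratinocytes. Entry into S phase runs through E2F transcription factors, which switch on cyclin E, the loading factors Cdc6 and Cdt1, the MCM helicase and the enzymes that supply deoxynucleotides. In G2 and mitosis a second wave is switched on by MuvB complexes with B-Myb and Foxm1. It encodes cyclins A and B, Cdk1, the Aurora and Polo kinases, spindle motors and the ubiquitin ligase parts that end mitosis. The protein made from Hnrnpu binds RNA and the nuclear scaffold, and in human cells it is phosphorylated by the Polo-like kinase and found at the mitotic spindle.

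The 2 waves differ in their promoters, which the choice of genes did not use. RefSeq start-site windows of 300 bases (250 before and 50 after the start, GRCm38.p6) were matched by symbol for 30 of the 38 genes, 13 of S phase, with 14 windows, and 17 of G2/M, with 17 windows. A gene was counted as holding an element where any of its windows did. The cell cycle homology region (CHR, searched as the TTTGAA form or the TTCGAA form, on either strand), the element bound by MuvB complexes, was present in 13 of 17 G2/M genes and 2 of 13 S-phase genes, beside 21.7% of all 27025 genes with a window. The CCAAT box (CCAAT on either strand) was present in 15 of 17 G2/M and 8 of 13 S-phase genes, beside 41.1% of all genes. An E2F core (the TTCCCGC form, the TTGGCGC form, the TTCGCGC form or the TTGCCGC form, on either strand) was present in 3 of 17 G2/M and 8 of 13 S-phase genes, beside 10.9% of all genes. Matches of the E2F core can overlap each other, and a match is a description of letters, not of a bound site. Shown are the 220 bases from 170 before to 50 after the start of Cdc20 and Ube2c, the G2/M genes with the widest gap between cKO replicates 4 and 3 among those with 1 window and both elements within these 220 bases, with CHR and CCAAT in capitals, and of Rrm1 and Mcm5, chosen in the same way among S-phase genes with 1 window and an E2F core within these 220 bases, with that core in capitals. Cdc20 lies at chr4:118437294-118437513 (minus strand), Ube2c at chr2:164769759-164769978 (plus), Rrm1 at chr7:102441525-102441744 (plus) and Mcm5 at chr8:75109339-75109558 (plus), each printed 5′ to 3′ on its own strand.
Cdc20: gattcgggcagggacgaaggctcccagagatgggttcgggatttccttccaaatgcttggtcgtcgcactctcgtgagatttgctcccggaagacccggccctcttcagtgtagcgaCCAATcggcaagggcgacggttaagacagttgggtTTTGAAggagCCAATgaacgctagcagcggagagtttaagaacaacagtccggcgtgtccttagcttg
Ube2c: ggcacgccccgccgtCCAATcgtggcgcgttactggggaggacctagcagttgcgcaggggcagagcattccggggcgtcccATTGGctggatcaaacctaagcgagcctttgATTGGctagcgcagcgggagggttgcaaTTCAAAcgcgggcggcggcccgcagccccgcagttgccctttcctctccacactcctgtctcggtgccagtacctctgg
Rrm1: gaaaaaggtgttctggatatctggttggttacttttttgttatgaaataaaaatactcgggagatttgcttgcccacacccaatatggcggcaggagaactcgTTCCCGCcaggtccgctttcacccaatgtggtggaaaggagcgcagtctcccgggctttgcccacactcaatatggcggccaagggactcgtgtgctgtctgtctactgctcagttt
Mcm5: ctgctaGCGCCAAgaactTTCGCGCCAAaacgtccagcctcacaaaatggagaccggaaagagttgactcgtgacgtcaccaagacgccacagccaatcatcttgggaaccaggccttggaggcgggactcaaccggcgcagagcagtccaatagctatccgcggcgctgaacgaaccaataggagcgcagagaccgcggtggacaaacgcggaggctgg

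Libraries held 37158621 to 38865722 counts. The targeted gene, Hnrnpu, had 189.8, 373, 355 and 312 CPM in cKO replicates 1 to 4, against 455, 424, 431 and 439 CPM in WT replicates 1 to 4. Every cKO library was below every WT library, but none lacked the transcript, and cKO replicate 1 was the lowest at 43.4% of the WT mean. The exact two-sided permutation p was 0.0286, the smallest that 4 against 4 libraries can give, and edgeR did not call the gene (log2 fold change -0.51, SE 0.19, adjusted p = 0.191 by edgeR). The deleted exons are not known here, so a transcript without them would still be counted. Nothing states whether each library is 1 mouse. The p-values therefore set the genotype difference against the spread between these libraries, which may not be a spread between mice.

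The cell cycle genes moved together from library to library within the cKO group, while none passed a test between the genotypes. Levels are given as CPM, read counts scaled to library size with TMM factors, and each gene's log2 CPM was centred on its mean over the 8 libraries. cKO replicate 4 was above the gene's mean for 38 of 38 genes and held the highest value of all 8 libraries for 35 of 38, where it held the highest value for 16.5% of all tested genes. cKO replicate 3 was above the mean for 0 of 38 and held the lowest value for 30 of 38, against 18% of all tested genes. cKO replicate 1 was above the mean for 35 of 38 and cKO replicate 2 for 17 of 38. The WT libraries lay closer together, with 29, 29, 6 and 6 of 38 genes above the mean in replicates 1 to 4. Fewer dividing cells and less of these transcripts per dividing cell cannot be told apart in bulk RNA.

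**Figure D1:**
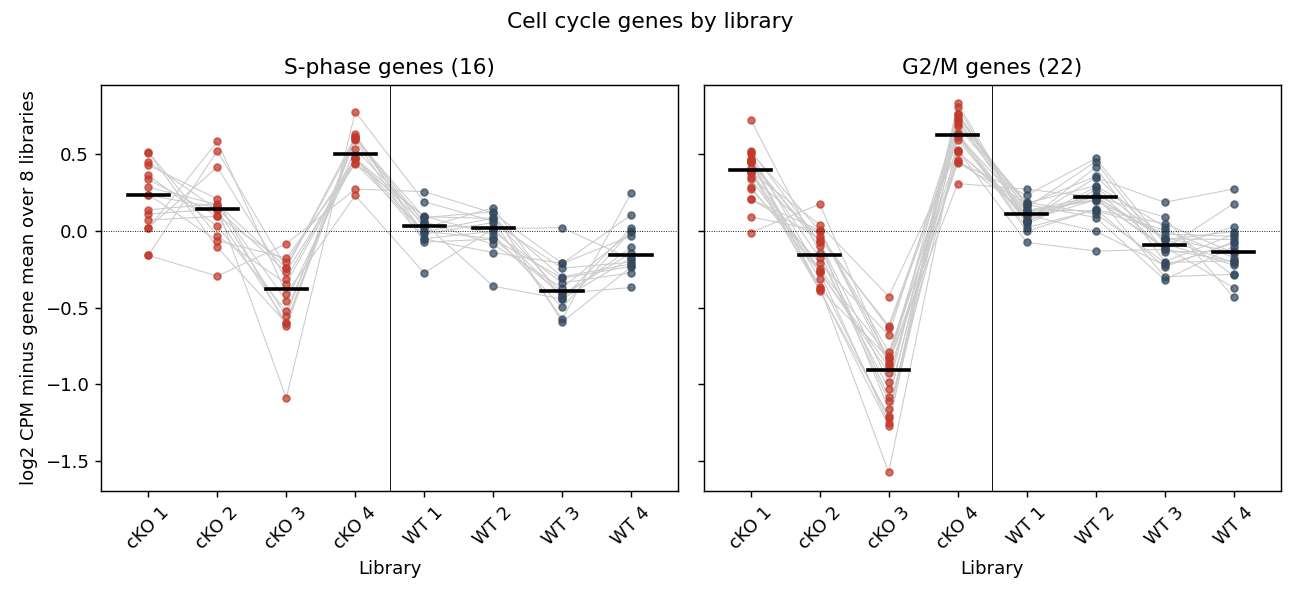
Log2 CPM of each gene minus its mean over the 8 libraries (y axis) in each library (x axis), for 16 S-phase genes (left) and 22 G2/M genes (right). Points are genes (cKO red, WT dark), grey lines join the values of 1 gene, black bars are medians, and libraries have no order; cKO replicate 3 sits lowest among G2/M genes at a median of -0.91 and cKO replicate 4 highest at 0.63.

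S-phase and G2/M genes shared this pattern, with a wider swing in G2/M. The median centred value of the 22 G2/M genes was 0.40, -0.16, -0.91 and 0.63 in cKO replicates 1 to 4, against 0.11, 0.22, -0.093 and -0.14 in WT replicates 1 to 4. That of the 16 S-phase genes was 0.23, 0.14, -0.38 and 0.50 in cKO, against 0.032, 0.016, -0.39 and -0.16 in WT. cKO replicate 3 stood apart from every other library in G2/M genes, where it was the lowest for 22 of 22, while in S-phase genes WT replicate 3 was as low and held the lowest value for 7 of 16, beside 8 of 16 for cKO replicate 3. The S-phase median minus the G2/M median was -0.16, 0.30, 0.53 and -0.12 in cKO and -0.080, -0.21, -0.30 and -0.024 in WT. The balance leaned to S phase in cKO replicates 2 and 3, and it lay within the WT range in cKO replicates 1 and 4. These medians were given no test, as the genes were chosen as a set with earlier results known.

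Summed in CPM with TMM factors, the 22 G2/M genes together held 1033, 754, 457 and 1199.5 CPM in cKO replicates 1 to 4, against 847, 903, 749 and 723 CPM in WT replicates 1 to 4. The 16 S-phase genes together held 747, 649, 461 and 884 CPM in cKO, against 618, 611, 479 and 563 CPM in WT. In both sums the WT libraries lay between cKO replicates 3 and 4. Among the cKO libraries, replicates 1 and 4 had the lower Hnrnpu levels and the higher sums, and replicates 2 and 3 the higher Hnrnpu levels and the lower sums, an order over 4 libraries that was not tested.

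Between the genotypes, none of the 38 genes was called at an adjusted p below 0.05 by the edgeR quasi-likelihood test, where 1.32% of all tested genes were called. At an unadjusted p below 0.05 the count was also 0 of 38, beside 18.6% of all tested genes, and DESeq2 and limma-voom called 0 of 38 as well (8.63% and 1.21% of all genes they tested). Adjusted p-values of the 38 ran from 0.300 to 0.995. In no gene did all cKO libraries lie on 1 side of all WT libraries, beside 11.1% of all tested genes, and in 30 of 38 all WT libraries lay inside the cKO range. The fitted log2 fold changes (cKO over WT) ran from -0.22 for Cdc20 to 0.40 for Ccne2. Of the 16 S-phase genes, 15 had a positive value, with a median of 0.27, and of the 22 G2/M genes 14 had one, with a median of 0.059 (8 of 22 and a median of -0.065 with limma-voom), while over all tested genes 51.9% were positive and the median was 0.011. The 95% confidence interval lay within a 2-fold change either way for 36 of the 38 genes. The others were Bub1, whose interval was -0.55 to 1.07, and Cdc20, at -1.08 to 0.63.

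**Figure D2:**
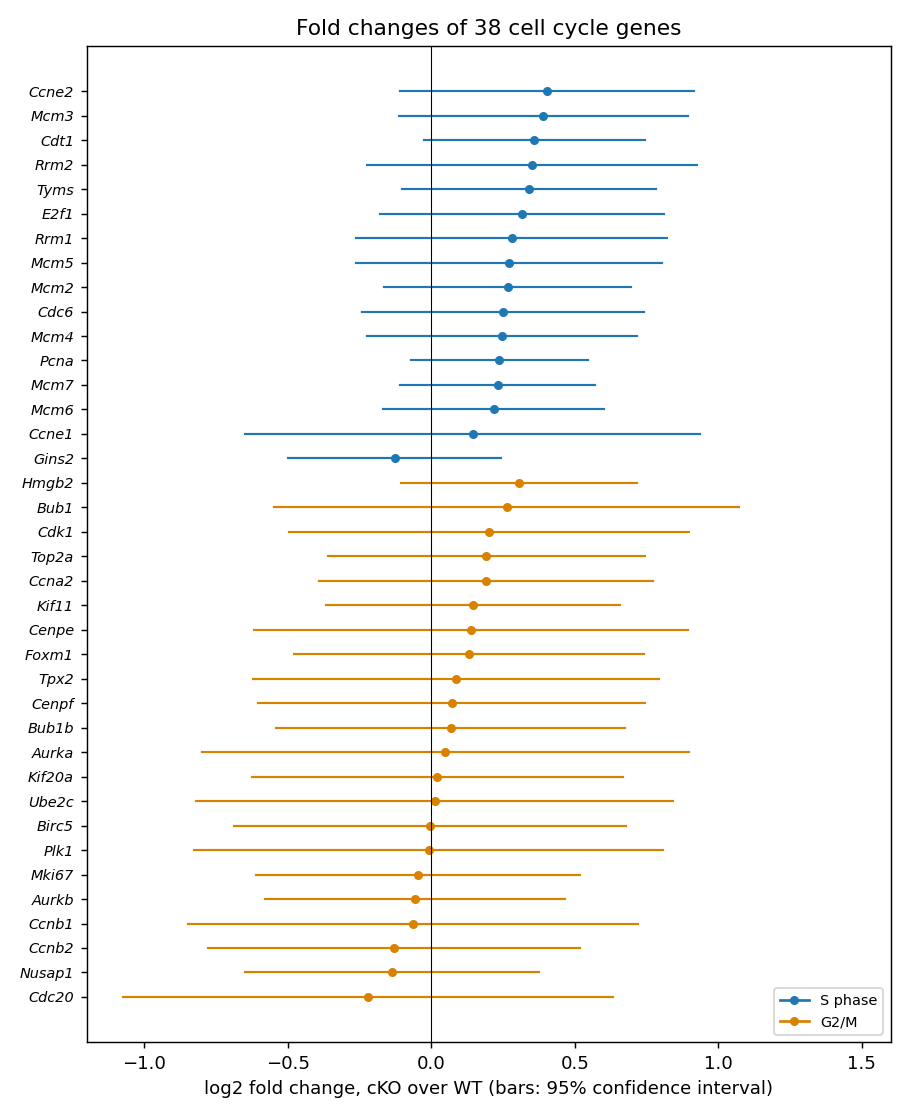
Fitted log2 fold change of each gene, cKO over WT (x axis), with its 95% confidence interval (bars), for S-phase genes (blue) above G2/M genes (orange). Every interval spans 0, and 15 of 16 S-phase and 14 of 22 G2/M estimates are positive.

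Leaving out single cKO libraries moved these values. Without cKO replicate 3 the median log2 fold change was 0.45 for S-phase and 0.30 for G2/M genes, 22 of 22 G2/M genes had a positive value, and 14 of 38 genes (11 of S phase, 3 of G2/M) reached an unadjusted p below 0.05, beside 18% of all genes in that fit. None was called there (lowest edgeR adjusted p = 0.102, 0.465% of all genes called). Without cKO replicate 4 the medians were 0.13 and -0.20, with 4 of 22 G2/M genes positive. The sign of the G2/M median thus turned with 1 library, also without cKO replicate 1 (-0.050), while that of the S-phase median was positive in all 8 such fits.

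Among the genes that license and start replication, Cdt1, which loads the MCM helicase onto origins, had 17.3, 17.8, 13.3 and 23.7 CPM in cKO replicates 1 to 4, against 14.9, 15.1, 12.7 and 13.4 CPM in WT replicates 1 to 4. cKO replicates 1, 2 and 4 were above every WT library and cKO replicate 3 was inside the WT range, and the difference did not pass (log2 fold change 0.36, SE 0.17, adjusted p = 0.300 by edgeR). Ccne2, a cyclin E that activates Cdk2, had 11, 17.7, 10.4 and 18.8 CPM in cKO replicates 1 to 4, against 12.7, 9.57, 9.03 and 12.4 CPM in WT replicates 1 to 4 (log2 fold change 0.40, SE 0.23, adjusted p = 0.381 by edgeR). cKO replicates 2 and 4 were above every WT library, and replicates 1 and 3 were inside the WT range. The other cyclin E gene, Ccne1, showed the widest range of the S-phase genes, 3.69-fold between cKO replicates 4 and 3, and a log2 fold change of 0.14. E2f1, the activating E2F, was at 0.32 and the loading factor Cdc6 at 0.25. In all 5 of these genes cKO replicate 2 was above the mean of the 8 libraries.

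The MCM2-7 complex unwinds DNA at the replication fork, and its 6 genes had log2 fold changes from 0.22 (Mcm6) to 0.39 (Mcm3), none of which passed. Mcm3 had 48.7, 39.2, 24.2 and 55.1 CPM in cKO replicates 1 to 4, against 34.4, 35.6, 28.2 and 29.5 CPM in WT replicates 1 to 4 (log2 fold change 0.39, SE 0.22, adjusted p = 0.388 by edgeR). Mcm4, the MCM gene with the highest CPM, had 77.9, 61.9, 42.2 and 87.8 CPM in cKO replicates 1 to 4, against 63.3, 57.0, 46.9 and 60.3 CPM in WT replicates 1 to 4 (log2 fold change 0.25, SE 0.21, adjusted p = 0.567 by edgeR). Mcm7 averaged 51.8 ± 10.2 CPM (SD) over the 4 cKO libraries, against 44.1 ± 5.45 CPM (SD) over the 4 WT libraries, with log2 fold change 0.23, SE 0.15, adjusted p = 0.450 by edgeR. In all 6 MCM genes cKO replicate 4 was the highest library, and in 4 of them (Mcm2, Mcm3, Mcm4 and Mcm5) cKO replicate 3 was the lowest, while in Mcm6 and Mcm7 WT replicate 3 was. Gins2, a subunit of the GINS complex that joins MCM in the active helicase, was the 1 S-phase gene with a negative log2 fold change, -0.13 ± 0.16 (SE), and had the smallest spread of the 38 among cKO libraries (8.56, 7.79, 9.02 and 11.6 CPM, against 11.4, 10.4, 8.25 and 10.3 CPM in WT).

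Pcna, the sliding clamp of DNA polymerases, had 113, 114, 93.1 and 149 CPM in cKO replicates 1 to 4, against 103, 97.1, 92.5 and 105 CPM in WT replicates 1 to 4 (log2 fold change 0.24, SE 0.14, adjusted p = 0.393 by edgeR). It was even across WT, with an SD of log2 CPM of 0.28 in cKO, against 0.083 in WT. Tyms, which makes thymidylate, had 31.2, 21.3, 17.2 and 30.3 CPM in cKO replicates 1 to 4, against 21.8, 21.1, 16.4 and 19.8 CPM in WT replicates 1 to 4 (log2 fold change 0.34, SE 0.20, adjusted p = 0.390 by edgeR), and it was the 1 gene in which cKO replicate 1 was the highest library. The ribonucleotide reductase subunits Rrm1 and Rrm2, which make deoxynucleotides, had log2 fold changes of 0.28 and 0.35, and cKO replicates 4 and 3 differed 2.32-fold in Rrm1 and 2.34-fold in Rrm2. All 4 genes of this role had positive fold changes and none passed the test.

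Among mitotic cyclins and kinases, 4 of 8 log2 fold changes were positive and 4 negative. Ccna2, cyclin A, had 58.0, 40.6, 22.8 and 58.2 CPM in cKO replicates 1 to 4, against 43.7, 40.6, 34.7 and 38.4 CPM in WT replicates 1 to 4 (log2 fold change 0.19, SE 0.26, adjusted p = 0.747 by edgeR). Cdk1, the kinase that drives entry into mitosis, had 46.7, 30.9, 16.4 and 52.8 CPM in cKO replicates 1 to 4, against 36.7, 34.6, 26.1 and 30.3 CPM in WT replicates 1 to 4 (log2 fold change 0.20, SE 0.31, adjusted p = 0.780 by edgeR). In both genes cKO replicates 1 and 4 were above every WT library and cKO replicate 3 was below every WT library. Ccnb1 and Ccnb2, the B-type cyclins that bind Cdk1, were at -0.064 and -0.13. The Polo-like kinase gene Plk1 was at -0.0092, the Aurora kinase genes Aurka and Aurkb at 0.050 and -0.056, and Foxm1, the transcription factor of this wave, at 0.13. cKO replicate 3 was the lowest library for 8 of these 8 genes.

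In the genes of the spindle checkpoint and of the anaphase-promoting ubiquitin ligase, the median ratio of cKO replicate 4 to cKO replicate 3 was 3.61, the largest of the 7 roles. Cdc20, the activator of that ligase, had 48.9, 27.9, 12.01 and 54.7 CPM in cKO replicates 1 to 4, against 37.6, 45.6, 40.8 and 43.3 CPM in WT replicates 1 to 4. cKO replicates 4 and 3 differed 4.55-fold in Cdc20, the widest gap of the 38 genes, where the highest and lowest WT libraries differed 1.21-fold (log2 fold change -0.22, SE 0.38, adjusted p = 0.809 by edgeR). Bub1, a checkpoint kinase at the kinetochore, had 18.6, 10.2, 5.19 and 18.7 CPM in cKO replicates 1 to 4, against 11.8, 13.0, 10.5 and 8.70 CPM in WT replicates 1 to 4 (log2 fold change 0.26, SE 0.36, adjusted p = 0.7499 by edgeR). Ube2c, the ubiquitin-conjugating enzyme of the same ligase, was at 0.012 and differed 4.24-fold between cKO replicates 4 and 3. Bub1b, a checkpoint kinase of the BubR1 type, was at 0.068, and Birc5, survivin of the chromosomal passenger complex, at -0.0053. In all 5 genes cKO replicates 1 and 4 lay above every WT library and cKO replicate 3 below every WT library.

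Of the spindle and kinetochore genes, Tpx2, a spindle assembly factor that activates Aurora A, had 38.5, 26.0, 13.1 and 43.4 CPM in cKO replicates 1 to 4, against 29.0, 34.0, 26.9 and 24.2 CPM in WT replicates 1 to 4 (log2 fold change 0.086, SE 0.31, adjusted p = 0.919 by edgeR). Kif11, the motor that pushes spindle poles apart, averaged 29.9 ± 10.4 CPM (SD) over the 4 cKO libraries, against 27.0 ± 2.91 CPM (SD) over the 4 WT libraries, with log2 fold change 0.15, SE 0.23, adjusted p = 0.786 by edgeR. Nusap1, a spindle microtubule-binding protein, averaged 18.5 ± 5.73 CPM (SD) over the 4 cKO libraries, against 20.4 ± 2.47 CPM (SD) over the 4 WT libraries, with log2 fold change -0.14, SE 0.23, adjusted p = 0.802 by edgeR. Kif20a, a motor of cytokinesis, and the kinetochore genes Cenpe and Cenpf were at 0.021, 0.14 and 0.072. All 6 were lowest in cKO replicate 3 and highest in cKO replicate 4.

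Mki67, the marker used to count dividing cells in tissue, had 135, 117, 64.1 and 159 CPM in cKO replicates 1 to 4, against 133, 144, 119 and 95.8 CPM in WT replicates 1 to 4. The genotypes overlapped (log2 fold change -0.046, SE 0.25, adjusted p = 0.949 by edgeR), with cKO replicate 3 below and cKO replicate 4 above all WT libraries. Top2a, the topoisomerase that untangles replicated chromosomes, had 115, 88.1, 57.9 and 136 CPM in cKO replicates 1 to 4, against 93.9, 106, 73.1 and 73.9 CPM in WT replicates 1 to 4 (log2 fold change 0.19, SE 0.24, adjusted p = 0.725 by edgeR). Hmgb2, a chromatin protein of dividing cells, had 216, 169.9, 123 and 238 CPM in cKO replicates 1 to 4, against 157, 151, 152 and 144 CPM in WT replicates 1 to 4 (log2 fold change 0.31, SE 0.18, adjusted p = 0.408 by edgeR). Hmgb2 was the most even of the 38 genes over the WT libraries, and cKO libraries lay on both sides of them.

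The spread between libraries of 1 genotype was larger in cKO than in WT for 38 of 38 genes, and for 69.7% of all tested genes. The median SD of log2 CPM over the 38 genes was 0.55 in cKO and 0.19 in WT, and over all tested genes it was 0.28 in cKO and 0.19 in WT. Among the S-phase genes it was 0.41 in cKO and 0.19 in WT, and among the G2/M genes 0.69 in cKO and 0.18 in WT. The ratio of cKO replicate 4 to cKO replicate 3 ran from 1.28 (Gins2) to 4.55 (Cdc20), with a median of 1.80 for S-phase and 2.95 for G2/M genes. After Cdc20 the widest ratios were those of Ube2c (4.24), Aurka (4.18), Ccnb1 (3.86) and Plk1 (3.85), all of late G2 and mitosis. The highest and lowest WT libraries differed by a median of 1.37-fold in S-phase and 1.31-fold in G2/M genes. The count of 38 became 30 without cKO replicate 3, 36 without cKO replicate 4 and 27 without both, and it was 37 or 38 without single WT libraries, in recounts chosen after the data were seen. The share of all tested genes was not recounted in this way. The 69.7% holds for all 8 libraries only, so the recounts do not say whether the 38 genes still differed from other genes. These genes rise and fall together and so are not independent of each other, and the difference in spread was not tested.

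**Figure D3:**
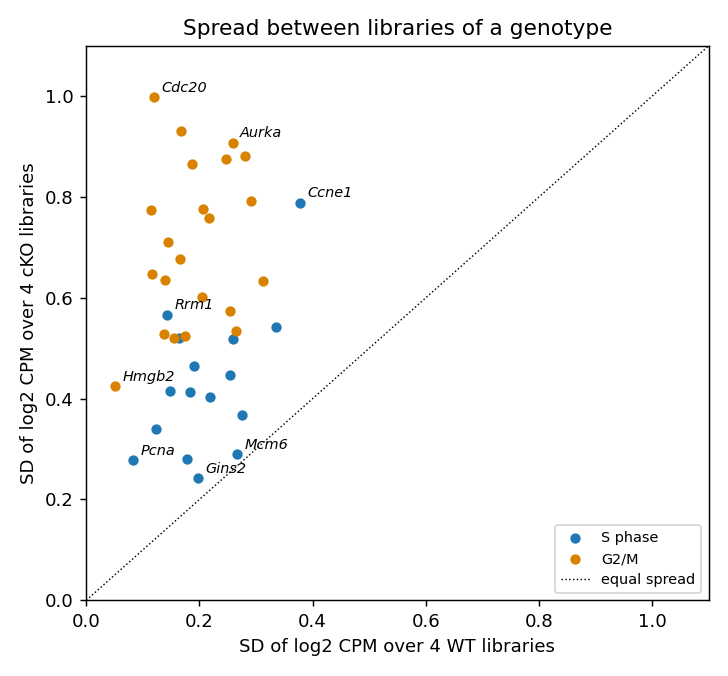
SD of log2 CPM over the 4 cKO libraries (y axis) against that over the 4 WT libraries (x axis) for each of the 38 genes, S phase in blue and G2/M in orange, with the line of equal spread. All points lie above the line, Cdc20 highest at 0.998 and Mcm6 and Gins2 nearest to it.

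Per length of transcript, in the deposited FPKM values (fragments per kilobase of transcript, scaled to library size), Pcna was the most abundant of the 38 genes, at 95.3 ± 22 FPKM in cKO and 77.3 ± 5.76 FPKM in WT (SD, n = 4 each). Hmgb2 followed at 69.2 ± 20.5 FPKM in cKO and 53.6 ± 2.68 FPKM in WT, and Ube2c at 34.2 ± 20.2 FPKM in cKO and 32.3 ± 3.81 FPKM in WT. Mki67 stood lower on this scale, at 11.9 ± 4.26 FPKM in cKO and 11.7 ± 2.04 FPKM in WT. The least abundant were Cdc6, at 1.39 ± 0.329 FPKM in cKO and 1.12 ± 0.0955 FPKM in WT, and Cenpf, at 1.65 ± 0.837 FPKM in cKO and 1.49 ± 0.162 FPKM in WT. These genes were the first 3 and the last 2 in both genotypes. The length behind each FPKM value is the authors' own.

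Other genes of the 2 waves followed the same libraries. Of 50 further DNA replication genes, none was called in either direction, 44 had a positive log2 fold change and the median was 0.24. Of these, 8 were higher and 1 lower at an unadjusted p below 0.05 by edgeR (9.87% and 8.71% of all tested genes), DESeq2 called 0 higher and 0 lower (8.63% of all genes in either direction), and limma-voom called 0 higher and 0 lower. The edgeR count at that p was 26 higher and 0 lower without cKO replicate 3, beside 18% of all genes, and 0 higher and 1 lower without cKO replicate 4, beside 18.2%. Without WT replicates 1 to 4 it was 9, 2, 1 and 2 higher, beside 16.4%, 15.7%, 15.1% and 13.6% of all genes in either direction. cKO replicate 4 held the highest value for 45 of these 50, and WT replicate 3 the lowest for 25 (16.5% and 10.6% of all tested genes). Those with the smallest p-values were Ung, a uracil-DNA glycosylase (log2 fold change 0.49, SE 0.18, adjusted p = 0.189 by edgeR), and Rpa3, a subunit of the single-strand binding protein RPA (log2 fold change 0.52, SE 0.19, adjusted p = 0.197 by edgeR). Of 66 further G2 and mitosis genes 65 were tested and none was called in either direction, 44 were positive and the median was 0.088. Of these, 3 were higher and 0 lower at an unadjusted p below 0.05 by edgeR (9.87% and 8.71% of all tested genes), DESeq2 called 0 higher and 0 lower (8.63% of all genes in either direction), and limma-voom called 0 higher and 0 lower. Without cKO replicate 3 the median was 0.27 and 15 were higher at that p, beside 18% of all genes in either direction. Without cKO replicate 4 the median turned to -0.060, with 1 higher and 1 lower, beside 18.2%. cKO replicate 3 held the lowest value for 54 of 65 and cKO replicate 4 the highest for 50. Psrc1, a microtubule regulator (log2 fold change 0.63, SE 0.20, adjusted p = 0.141 by edgeR), and Esco2, which acetylates cohesin in S phase (log2 fold change 0.62, SE 0.24, adjusted p = 0.214 by edgeR), had the smallest p-values of that list.

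Among further regulators of the cell cycle, 1 gene passed the test. Their list also holds genes that act later than G1, among them Wee1, E2f7 and E2f8. Of 30 G1 cyclins, kinases and E2F and Rb family genes, 1 rose and 0 fell by the edgeR test, beside 0.671% and 0.65% of all tested genes (list median 0.11). Of the 30, 5 were higher and 3 lower at an unadjusted p below 0.05 by edgeR (9.87% and 8.71% of all tested genes), DESeq2 called 4 higher and 2 lower (8.63% of all genes in either direction), and limma-voom called 1 higher and 0 lower. The gene that rose was Ccnd2, cyclin D2, a partner of Cdk4 and Cdk6 that carries growth signals into G1, with 107, 74.4, 114 and 170.2 CPM in cKO replicates 1 to 4, against 36.0, 32.0, 44.96 and 42.6 CPM in WT replicates 1 to 4. All cKO libraries were above all WT libraries, and Ccnd2 was 2.99-fold higher (log2 fold change 1.58, SE 0.23, adjusted p = 0.0276 by edgeR). The call was lost when any of 6 single libraries was left out, with an adjusted p of 0.0569 and 0.0526 without cKO replicates 1 and 3 and of 0.0635, 0.0748, 0.0790 and 0.0868 without WT replicates 1 to 4. The log2 fold change stayed between 1.34 and 1.76. Mybl1, which encodes A-Myb, had 8.04, 4.09, 3.43 and 5.64 CPM in cKO replicates 1 to 4, against 2.81, 1.77, 1.47 and 1.63 CPM in WT replicates 1 to 4 and did not pass (log2 fold change 1.46, SE 0.33, adjusted p = 0.0569 by edgeR), although it passed with no count filter (adjusted p = 0.0471 by edgeR) and without cKO replicate 2 (0.0473).

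All cKO libraries lay on 1 side of all WT libraries in 6 of these 30 genes, 4 with cKO above WT (5.26% of all tested genes) and 2 with cKO below WT (5.82%), and the 4 besides Ccnd2 and Mybl1 are named after their values were seen. E2f7 and E2f8 encode the atypical E2F factors, which repress E2F targets late in S phase. E2f7 had 7.18, 8.599, 3.72 and 6.07 CPM in cKO replicates 1 to 4, against 15.3, 13.0, 10.8 and 17.0 CPM in WT replicates 1 to 4 (log2 fold change -1.13, SE 0.25, adjusted p = 0.0582 by edgeR), and E2f8 had 21.8, 24.3, 12.04 and 22.03 CPM in cKO replicates 1 to 4, against 32.1, 36.8, 28.5 and 36.6 CPM in WT replicates 1 to 4 (log2 fold change -0.74, SE 0.20, adjusted p = 0.101 by edgeR). In both genes all cKO libraries lay below all WT libraries, without passing the edgeR threshold. E2f7 passed with no count filter (adjusted p = 0.0432 by edgeR) and without cKO replicate 2 (0.0383). Wee1, the kinase that holds Cdk1 inactive, had 21.8, 22.1, 55.9 and 22.8 CPM in cKO replicates 1 to 4, against 15.4, 13.7, 12.4 and 14.2 CPM in WT replicates 1 to 4 (log2 fold change 1.14, SE 0.31, adjusted p = 0.0940 by edgeR), and without cKO replicate 3, which stood far above the others, its log2 fold change was 0.69 and it passed the threshold (adjusted p = 0.0464 by edgeR). Rbl2, the pocket protein p130 of resting cells, was at 0.36 ± 0.090 (SE, edgeR adjusted p = 0.0796). DESeq2 called all of these 6 genes, where it called 8.63% of all genes. Beside these genes, the summed markers of the bulge and outer root sheath of the hair follicle, 10 of 10 found, were 4257 to 6292 CPM in cKO and 3029 to 3336 CPM in WT, and those of melanocytes, 8 of 8 found, were 61.1 to 123 CPM in cKO and 35.9 to 53.7 CPM in WT. Neither sum overlapped between the genotypes. Most of the bulge and outer root sheath sum was Krt79 and Krt17. Krt79 had 2426 to 3129 CPM in cKO and 1119 to 1673 CPM in WT. Krt17 overlapped, with 1389 to 2941 CPM in cKO and 1319 to 2039 CPM in WT. Taken singly, 6 of these 10 markers and 4 of the 8 melanocyte markers had all cKO libraries above all WT libraries, beside 5.26% of all tested genes. The other melanocyte markers, Tyr, Pmel, Kit and Sox10, overlapped between the genotypes. Sebocyte markers, 10 of 10 found, summed to 1089.5 to 3346 CPM in cKO and 839 to 1415 CPM in WT, which overlapped, with a positive log2 fold change in 8 of 9 tested markers and a median of 1.33. Inner root sheath markers, 8 of 8 found, summed to 90.6 to 199 CPM in cKO and 94.9 to 148 CPM in WT, which overlapped. Of the 5 tested, 3 had a negative and 2 a positive log2 fold change (median -1.30). Among them 1 was called lower (Tchh, adjusted p = 0.0337 by edgeR) and 0 higher, beside 0.65% and 0.671% of all tested genes. The part of these cell types in the levels of Ccnd2, Mybl1, E2f7, E2f8, Wee1 and Rbl2 was not tested.

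**Figure D4:**
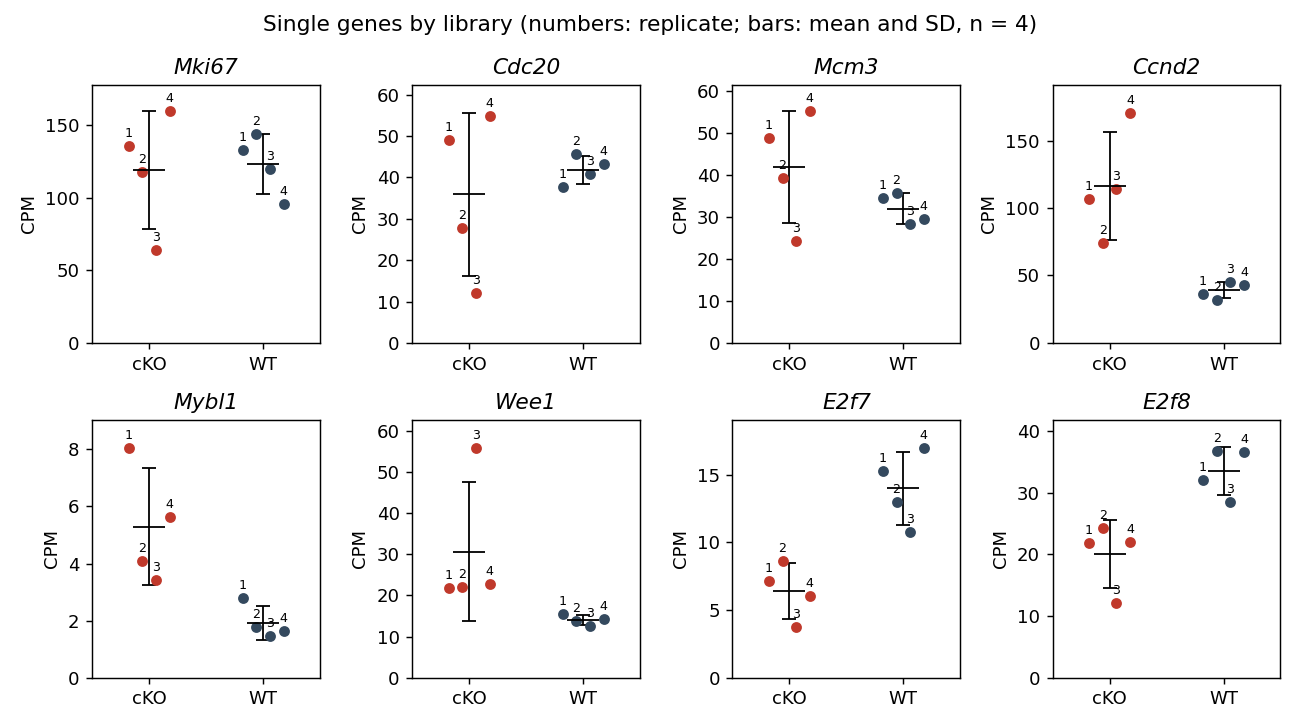
CPM (y axis, from 0) in each cKO and WT library for Mki67, Cdc20, Mcm3, Ccnd2, Mybl1, Wee1, E2f7 and E2f8; points carry the replicate number, and bars are the mean and SD (n = 4). The genotypes overlap in Mki67, Cdc20 and Mcm3, cKO lies above WT in Ccnd2, Mybl1 and Wee1, and below WT in E2f7 and E2f8.

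Of 22 inhibitor and arrest genes 21 were tested, and none was called in either direction (median 0.22, 14 positive). Of these, 2 were higher and 1 lower at an unadjusted p below 0.05 by edgeR (9.87% and 8.71% of all tested genes), DESeq2 called 2 higher and 0 lower (8.63% of all genes in either direction), and limma-voom called 0 higher and 0 lower. Zmat3, a p53 target, had 90.6, 62.0, 53.0 and 72.5 CPM in cKO replicates 1 to 4, against 49.9, 50.2, 42.2 and 46.2 CPM in WT replicates 1 to 4 (log2 fold change 0.56, SE 0.16, adjusted p = 0.107 by edgeR). Tob1, an antiproliferative gene, had 66.5, 105, 107 and 67.8 CPM in cKO replicates 1 to 4, against 50.6, 58.1, 66.4 and 43.8 CPM in WT replicates 1 to 4 (log2 fold change 0.66, SE 0.20, adjusted p = 0.124 by edgeR). In both, every cKO library was above every WT library, which held for 2 of the 21 genes, beside 5.26% of all tested genes. Both were called by DESeq2 (adjusted p = 0.0291 for Zmat3 and 0.0303 for Tob1). Sfn, the 14-3-3 sigma gene of keratinocytes, was the 1 gene of the 21 with every cKO library below every WT library, beside 5.82% of all tested genes. It had 2608 ± 636 CPM (SD) over the 4 cKO libraries, against 3633 ± 363 CPM (SD) over the 4 WT libraries (log2 fold change -0.48, SE 0.18, adjusted p = 0.205 by edgeR). Sfn is named after its value was seen.

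Markers of the cells that could carry these transcripts differed between libraries too. The 9 basal keratinocyte markers, all 9 found and none at 0, summed to 28311, 22742, 16775 and 25019 CPM in cKO replicates 1 to 4, against 30169, 36514, 24454 and 27444 CPM in WT replicates 1 to 4. cKO replicate 3, lowest in G2/M genes, was also the lowest of the 8 in this sum. cKO replicate 4, highest in cell cycle genes, lay inside the WT range. Most of the sum was Krt5 and Krt14, at 6643 and 6993 CPM in cKO replicate 3. Both were lowest of the 8 there, as were Itgb4 and Itga3. Among cKO libraries, Krt15, Col17a1, Trp63 and Lamb3 were instead highest in replicate 3 (1295, 915, 389 and 108 CPM), and Itga6 was in between. Between the genotypes, 8 of the 9 basal markers had a negative log2 fold change and 1 a positive one (median -0.25). None was called, and 3 were lower and 0 higher at an unadjusted p below 0.05 by edgeR, beside 8.71% and 9.87% of all tested genes. The part of basal cell content in the swing was not tested. The 9 suprabasal markers summed to 46409 to 91809.5 CPM in cKO and 53092 to 83275 CPM in WT, lowest in cKO replicate 4. Neutrophil markers, 6 of 8 found and nearly all of the sum from S100a8 and S100a9, which inflamed keratinocytes also express, summed to 6908, 1682, 1645 and 9519 CPM in cKO, against 4496, 3706, 14072 and 17123 CPM in WT. Within cKO this sum had the order of the cell cycle sums, and within WT replicates 3 and 4, the highest, had the lower cell cycle sums. Its part was not tested. Sums of 8 of 10 T cell markers found in the table were 11.1 to 32.3 CPM in cKO and 9.40 to 59.3 CPM in WT, those of 8 of 8 macrophage markers 26.2 to 60.8 CPM in cKO and 33.6 to 48.4 CPM in WT, and those of 8 of 9 hair matrix and shaft markers 30.0 to 73.1 CPM in cKO and 25.5 to 47.5 CPM in WT. In cKO libraries each of these 3 sums was lowest in cKO replicate 4, where the cell cycle genes were highest. Most of the hair matrix sum was Dlx3, at 30.7, 66.4, 42.1 and 19.9 CPM in cKO replicates 1 to 4. Hoxc13 was lowest in cKO replicate 2 and Msx2 in cKO replicate 1. Csf1r, the macrophage marker with the highest CPM (19.1, 29.4, 21.2 and 6.85 in cKO), and Cd68 were lowest in cKO replicate 4. Adgre1, C1qa, C1qb, C1qc and Mrc1 were lowest in cKO replicate 2, and Fcgr1 in cKO replicate 3. Fibroblast markers, 7 of 7 found, summed to 1.09 to 3.87 CPM in cKO and 1.15 to 10.2 CPM in WT, and 6 of 6 endothelial markers to 0.868 to 1.53 CPM in cKO and 1.47 to 2.60 CPM in WT. Of the markers found in the table, none of any list was at 0 in all 8 libraries.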

How the data were processed

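Epidermal RNA of 8 samples was sequenced, 4 cKO and 4 WT. The authors deposited raw read counts for each gene symbol, and FPKM values for the same genes. HISAT2 and HTSeq are named, without versions or settings, per the submitters' processing notes. The genome build, annotation and strand setting were not given in the sources used here, and without the strand, reads of antisense partners cannot be told apart. The FPKM values equal counts over a fixed length and the column total for 20863 of 20863 genes (relative tolerance 1e-04).

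Genes were filtered with filterByExpr, scaled with TMM factors (0.934 to 1.08) and tested with edgeR 4.0.16 (glmQLFit, glmQLFTest, R 4.3.3), cKO over WT with no covariate. P-values were adjusted by Benjamini-Hochberg over all 14004 tested genes, with calls below 0.05. Standard errors are those implied by the F statistic. The fitting code was tested on simulated data. Replicates did not agree within sampling noise (lowest chi-square per degree of freedom 47.9), so all were kept. Same-numbered libraries showed correlations of -0.10, 0.13, 0.10 and 0.19 between genotypes. These values do not settle whether the numbers pair them, and the main fit used no pairs.

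Genes described in full are Mki67, Top2a, called genes, in each of 7 roles the 2 smallest p-values and the highest CPM, and in each further list called genes and the 2 smallest p-values. Genes, lists and tests were chosen with earlier results of these data known. Alternatives were DESeq2 1.42.0, limma-voom (limma 3.58.1), RLE factors, library size only, no count filter, at least 1 CPM in 4 libraries, limma on the deposited FPKM with a pseudocount of 1 or of 0.1 before log2 (mean FPKM of at least 0.5), the replicate block, and leaving out each library. Total counts per library were 37158621 to 38865722.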

Additional observations from a re-analysis of the deposited data

Results flagged for a closer look

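Wee1 was the 1 measure in which a library stood far from the others of its genotype. cKO replicate 3 held 55.9 CPM, while cKO replicates 1, 2 and 4 held 21.8, 22.1 and 22.8 CPM. The gap took up 0.969 of the cKO range, past Dixon's 95% limit for 4 samples. Chance would pass about 1 in 20 of the 116 groups of 4 values looked at, and 1 group passed, fewer than that rate would give. Wee1 was among the genes named after their values were seen. The same library was the lowest of the 8 in all 22 G2/M genes, none of which passed that limit.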

How the results depend on the processing

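The count of called genes among the 38 was 0 under all 17 alternatives run, which called 0.056% to 8.63% of all genes, and at an unadjusted p below 0.05 it was 0 except with library-size scaling (1) and without cKO replicate 3 (14). The S-phase median log2 fold change was positive in all of them (0.13 to 0.45 without single libraries), and the G2/M median changed sign (-0.20 to 0.30). It was negative without cKO replicates 1 and 4, and also with limma-voom (-0.065), on log2(FPKM + 0.1) (-0.0031) and with the replicate block (-0.066). Library-size scaling moved the median of all genes to 0.074 and Mki67 to 0.014. Tpx2 turned to -0.043 with limma-voom and to -0.035 with the replicate block. Without single libraries Mki67 ran from -0.22 to 0.17, Cdc20 from -0.49 to 0.085, Nusap1 from -0.27 to 0.072, Cdk1 from -0.019 to 0.46, Kif11 from -0.075 to 0.34 and Tpx2 from -0.13 to 0.35. The numbers of the libraries are not stated to pair them: 2 of 4 cKO libraries correlated best with their own number, and the fit with the block called 216 genes in all, against 185 without it. That total was 1208 with DESeq2, 349 with no count filter and 8 to 506 without single libraries. With the block Mybl1, Tob1 and E2f7 passed (edgeR adjusted p = 0.0389, 0.0448 and 0.0479), and it changed no other call among the genes described. The causes were not tested. Each of the 38 genes had at least 141 counts in each library.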
